A study of Homo sapiens with 3 samples.

Results

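The genes described here are 30 genes of cholesterol and fatty acid synthesis, chosen by their known roles, with earlier results of these data known but by no rule on measured values, out of 61193 genes (19926 of them protein-coding) to which the deposited transcripts could be joined. They comprise 7 enzymes of the mevalonate arm, 11 enzymes that turn its product into squalene and then cholesterol, 5 regulators of the sterol-responsive transcription factors, 3 proteins that move sterols within the cell and 4 enzymes of fatty acid synthesis. Their RNA was measured by 3′ end RNA-seq in HEK293T, a line from human embryonic kidney that makes the large T antigen of SV40. The single group held 3 replicates of untreated cells, each grown in DMEM with 10% fetal bovine serum, seeded at 1500000 cells a flask, collected 24 h later and represented by RNA from 3000000 cells. The study maps DNA structures called i-motifs in chromatin and uses these libraries to sort genes by how much RNA they make. Serum in the medium brought the cells cholesterol and fatty acids from outside, and no sterol-depleted or sterol-loaded group was analysed here, so the values are levels in 1 state of the cells and no test between conditions could be made.

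Animal cells build cholesterol from acetyl-CoA. The mevalonate arm joins acetyl units into isoprenoids, a second arm joins isoprenoids into squalene, closes it into lanosterol and trims lanosterol to cholesterol, and fatty acid synthesis draws on the same acetyl-CoA. The transcription factors SREBF1 and SREBF2 raise the genes of both routes when sterols are scarce: SCAP escorts them from the endoplasmic reticulum to the Golgi for cleavage, and INSIG1 and INSIG2 hold SCAP back when sterols are plentiful.

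The libraries held 6262175 to 8521624 counts, and mitochondrial genes took 5.70% to 25.8% of them, with replicate 3 at the top of both ranges. A count of 0 allows up to 3 counts in a library, or 0.352 to 0.479 CPM (counts per 1000000 counts of the library), and this limit covers counting error only. Levels are given in TPM, the count of a transcript divided by its length and rescaled to 1000000 in each library, summed over the listed transcripts of a gene. A gene was called expressed at a mean of at least 1 TPM, and expressed genes were split at the first and the third quartile of all 13296 of them, 2.40 and 24.1 TPM, into low, medium and high. Of the markers of other cells, 0 of 6 for hepatocytes, 0 of 5 for adipocytes, 0 of 4 for leukocytes and 0 of 5 for differentiated kidney were expressed, and the hepatocyte list summed to at most 0.673 TPM. Among 5 fibroblast markers 3 were expressed, with a sum of 27.9 to 29.97 TPM that came mostly from COL1A1. For the line itself 3 of 7 expected genes were expressed (PAX2, LHX1 and KRT8). The keratin gene KRT18 and the neurofilament genes NEFL and NEFM were listed at 0, and vimentin, VIM, held 0, 6 and 5 counts, so a gene listed at 0 in these tables is given as such and not as silent.

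Of the 30 genes, 16 were expressed, beside 38.2% of all protein-coding genes, and 5 of them (SCD, PMVK, SQLE, MSMO1 and NPC1) were in the high category, beside 12.5% of protein-coding genes. A further 8 were medium and 3 were low. At the other end, 10 genes held no more than 3 counts in any replicate, beside 50.9% of protein-coding genes, and 6 of those were listed at 0 throughout. The median of the 30 mean levels was 1.33 TPM, and the levels summed to 1464, 1536 and 1085 TPM in the 3 replicates (1362 ± 242, SD, n = 3). The sum was far from even: SCD alone supplied 60.2% ± 1.23 of it (SD, n = 3), and SCD with PMVK 82.5% ± 1.23. SCD and PMVK are also the only 2 of the 30 genes with 1 listed transcript, and the part of this in their share was not tested. In RNA from whole cultures, fewer cells that use a gene and less RNA per cell cannot be told apart.

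**Figure D1:**
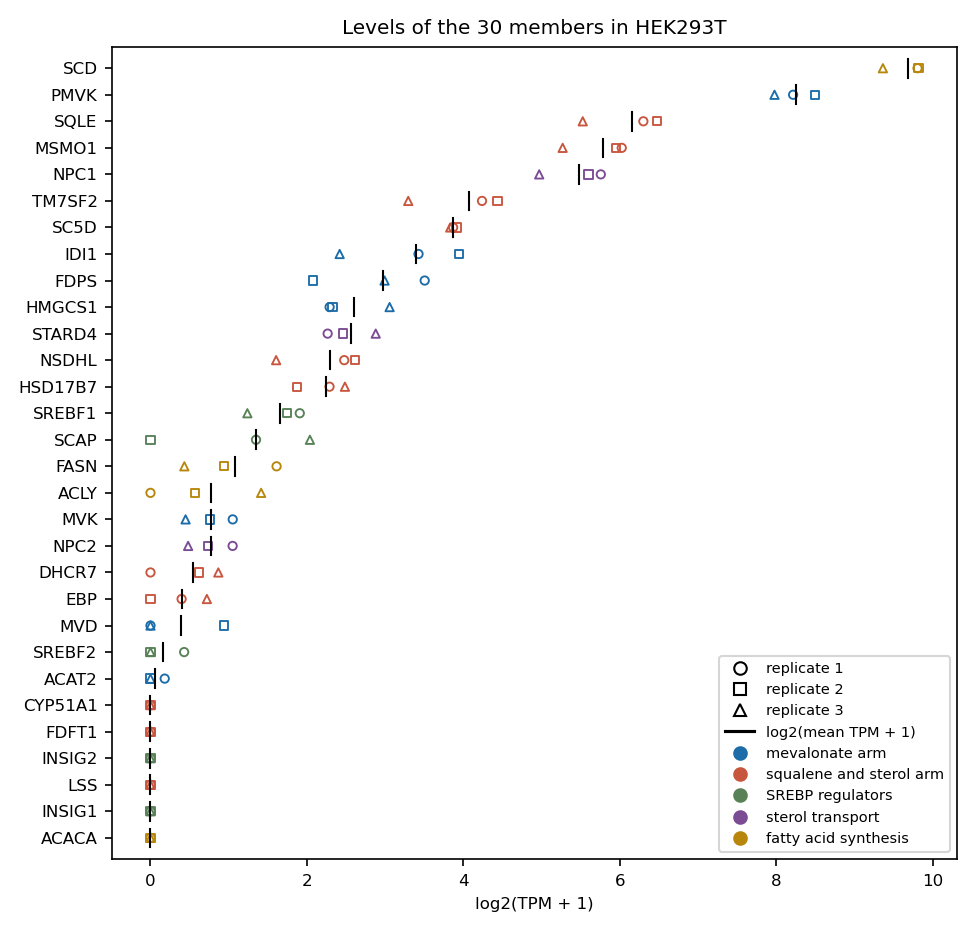
Level of each of the 30 genes on the log2(TPM + 1) scale, ordered by mean TPM, with 1 open symbol per replicate, a black bar at the log2 of the mean TPM + 1 and the colour showing the arm of the pathway. SCD and PMVK stand apart at the top, 6 genes sit at 0, and replicate 3 lies lowest for each of the 5 highest genes.

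The mevalonate arm held 4 expressed genes of 7 and summed to 325 ± 57.0 TPM (SD, n = 3). Nearly all of that came from PMVK, phosphomevalonate kinase, which adds the second phosphate to mevalonate (chr1:154924740-154936719, minus strand, GRCh38). PMVK stood at 296, 361 and 251 TPM from 1348, 1386 and 1679 counts, and its mean of 303 TPM ranked 266 among protein-coding genes. All 3 replicates were high and none overlapped the range of any other gene of the 30.

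The genes on either side of PMVK in the arm were much lower. IDI1, which isomerises the isoprenoid unit, stood at 9.76, 14.4 and 4.35 TPM, and FDPS, which joins such units into farnesyl diphosphate, at 10.4, 3.23 and 6.96 TPM. HMGCS1, the synthase that makes HMG-CoA, stood at 3.89, 4.02 and 7.32 TPM. These 3 genes overlapped one another in their ranges, so their order was not resolved. MVK, mevalonate kinase, the enzyme just before PMVK, stood at 1.07, 0.698 and 0.365 TPM and its mean of 0.712 TPM fell under the threshold. MVD, which removes a carboxyl group to form the isoprenoid unit, held 1 count in all, in replicate 2. ACAT2, the thiolase that starts the route, also held 1 count, in replicate 1.

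The squalene and sterol arm held 6 expressed genes of 11 and summed to 162 ± 43.2 TPM (SD, n = 3). SQLE, squalene epoxidase, which adds oxygen to squalene, stood at 77.9, 88.2 and 45.1 TPM from 1047, 1002 and 885 counts. MSMO1, the oxygenase that removes methyl groups from the sterol ring (chr4:165327667-165343164, plus strand), stood at 64.1, 61.0 and 37.6 TPM from 630, 521 and 551 counts. The ranges of SQLE and MSMO1 overlapped, so neither was shown to be the higher. Both were high in every replicate.

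The other 4 expressed genes of the arm were medium. TM7SF2, a sterol reductase that acts just before MSMO1, stood at 17.9, 20.6 and 8.82 TPM from only 29 to 40 counts. SC5D, the desaturase near the end of the route (chr11:121292681-121313410, plus strand), stood at 13.6, 14.0 and 13.2 TPM from 369 to 540 counts, the tightest of the expressed genes with an SD of 0.400 TPM. NSDHL, a dehydrogenase that removes a carboxyl group from the sterol, stood at 4.57, 5.12 and 2.04 TPM. HSD17B7, the ketone reductase that follows NSDHL, stood at 3.89, 2.67 and 4.60 TPM, within reach of NSDHL in each direction. The last reductase of the route, DHCR7, held 0, 2 and 4 counts, and the isomerase EBP held 1, 0 and 3. FDFT1 (squalene synthase), LSS (lanosterol synthase) and CYP51A1 (lanosterol demethylase) were listed at 0 in all 3 replicates. FDFT1 acts directly before SQLE and LSS directly after it, and SQLE held 2934 counts.

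The 5 regulators together held only 44 counts, in 2 expressed genes of 5, both low. SREBF1 stood at 2.75, 2.35 and 1.36 TPM from 11, 8 and 8 counts. SCAP stood at 1.55, 0 and 3.11 TPM from 4, 0 and 12 counts and was low, under the threshold and medium in turn, and without replicate 3 its mean was 0.774 TPM, below the threshold. SREBF2, the factor best known for the cholesterol genes, held 1 count, and INSIG1 and INSIG2 were listed at 0.

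Among the 3 genes of sterol transport 2 were expressed. NPC1, the membrane protein that passes cholesterol out of lysosomes (chr18:23506184-23586506, minus strand), stood at 53.1, 47.5 and 30.3 TPM from 467, 324 and 456 counts. Its lysosomal partner NPC2, which hands cholesterol to NPC1, held 5, 3 and 3 counts and a mean of 0.709 TPM, so the partners did not overlap in any replicate. STARD4, a cytosolic carrier of sterols, stood at 3.81, 4.51 and 6.36 TPM from 80, 80 and 190 counts, and replicate 3 was its highest, where each of the 5 high genes was at its lowest.

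Of the 62517 counts of the fatty acid synthesis genes, 62497 lay on SCD. SCD, stearoyl-CoA desaturase, which puts the double bond into stearate to make oleate (chr10:100347233-100364826, plus strand), stood at 895, 904 and 658 TPM from 21303, 18169 and 23025 counts. Its mean of 819 ± 139 TPM (SD, n = 3) ranked 93 among protein-coding genes. FASN, the fatty acid synthase that makes the saturated chains, held 8, 3 and 2 counts and 2.06, 0.913 and 0.3499 TPM, and without replicate 1 its mean of 0.631 TPM was below the threshold. ACLY, which makes cytosolic acetyl-CoA from citrate, held 0, 1 and 6 counts, and ACACA, the carboxylase that makes malonyl-CoA, was listed at 0. The desaturase was thus high in every replicate while the enzymes that make its substrate held 13, 7 and 0 counts in all. SCD has 1 listed transcript, and its last 300 bases lie in no other listed transcript. FASN, ACLY and ACACA have 13, 10 and 23 listed transcripts. Their canonical transcripts have 2, 0 and 2 such bases among the last 300, and the part of this in the counts was not tested.

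Ordered by mean TPM, only 3 neighbouring pairs of the 30 had ranges that did not overlap: SCD above PMVK, PMVK above SQLE, and NPC1 above TM7SF2. The category was the same in every replicate for 23 of the 30 genes and for 12 of the 16 expressed ones. The 23 include the 6 genes listed at 0 throughout. The expressed genes that changed category between replicates were NSDHL, SREBF1, SCAP and FASN. Only 15 genes held more than 3 counts in every replicate. These counts of genes were not computed over all protein-coding genes. The median SD of log2(TPM + 1) was 0.425 over the 16 expressed genes, beside 0.383 over all expressed genes and 0.356 over expressed protein-coding genes. Without replicate 3 the median over the expressed members was 0.126.

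The tables count reads for each transcript, and the reads of these genes did not fall on the same kind of transcript. The canonical transcript, the one Ensembl chooses to represent a gene, held 98.6% of all counts of the 30 genes, and 91.5% once SCD was left out. It held the most counts in 9 genes (SCD, PMVK, SQLE, MSMO1, NPC1, SC5D, STARD4, NSDHL and HMGCS1), and all 5 high genes are among them. In the other 15 genes with a count it held none.

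In 6 genes (TM7SF2, FDPS, SCAP, FASN, MVK and SREBF2, the last with 1 count in all) most counts lay on transcripts annotated as retained introns. All 108 counts of TM7SF2 lay on 1 such transcript of 493 bases, where the canonical transcript has a deposited length of 1744, and dividing the counts of each gene by its canonical length in GENCODE 44 (1578 bases here) gave 5.05 TPM in place of 15.8. FDPS had 205 of its 208 counts on a retained-intron transcript of 2017 bases. The retained-intron transcripts that held most counts also had more bases found in no other listed transcript on their strand than the canonical ones. These were 188 against 0 in TM7SF2, 1337 against 0 in FDPS, 210 against 32 in SCAP and 321 against 8 in FASN. In MVK they were 2822 against 855 and in SREBF2 407 against 59. The part of this in where reads were counted was not tested. In IDI1 a protein-coding transcript of only 441 bases held 55 of 68 counts, and the level fell from 9.51 to 1.85 TPM with the canonical length.

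The same change moved other genes whose counts lay on short transcripts. HMGCS1 went from 5.08 to 1.11 TPM, since 43 of its 92 counts lay on a retained-intron transcript of 591 bases. NPC1 went from 43.6 to 18.3 TPM and left the high category, with 927 of 1247 counts on the canonical transcript. SREBF1, SCAP and FASN went to 0.398, 0.215 and 0.115 TPM and below the threshold, while MVK rose to 1.06 TPM and HSD17B7 to 6.34 TPM. SCD, PMVK, SQLE and MSMO1 stayed high, at 838, 310, 72.0 and 54.8 TPM.

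**Figure D2:**
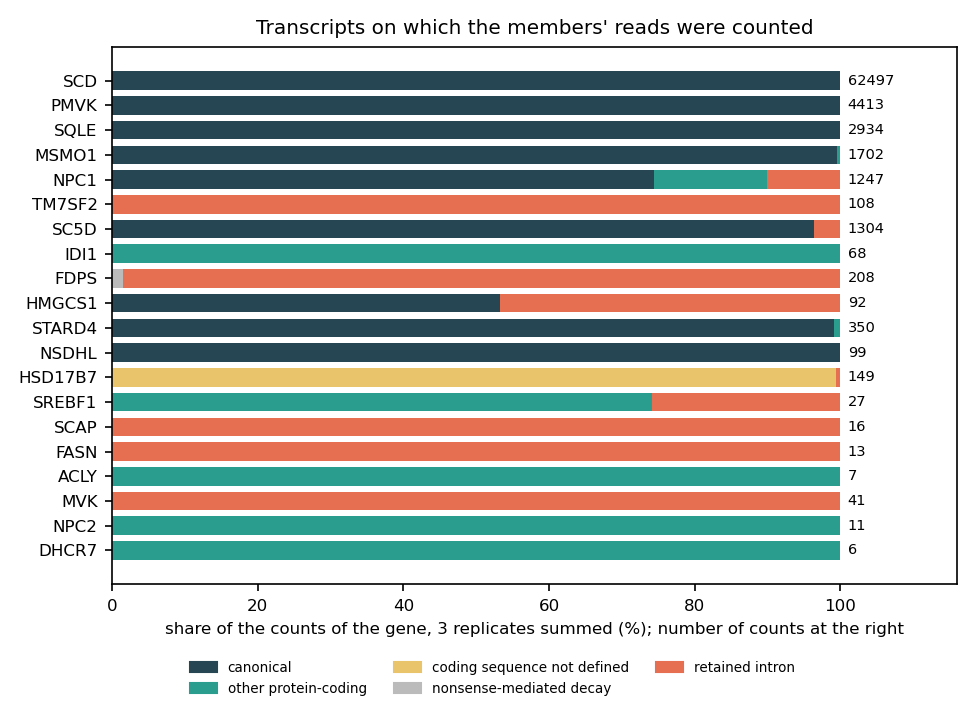
Share of the counts of each gene, in percent over the 3 replicates together, by the annotated type of transcript, with the number of counts at the right of each bar, for the 20 genes with more than 3 counts in any replicate. SCD, PMVK and NSDHL are wholly canonical, SQLE and MSMO1 nearly so, and TM7SF2, SCAP, FASN and MVK lie wholly on retained-intron transcripts.

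The counts followed how much of the 3′ end belonged to 1 transcript alone. A base was taken as a transcript's own when it lay in no further transcript of the tables on that strand, and the final 300 exonic bases of each canonical transcript were examined, since reads of a 3′ library come from near there. With at least 100 own bases there, 9 of the 30 genes had a median of 416 counts per replicate, 8 of them were expressed and 4 were high. With fewer, 21 genes had a median of 2 counts, 8 were expressed, 1 was high (SQLE), and all 10 genes at or under 3 counts were among them. Over protein-coding genes the expressed share was 53.1% with at least 100 own bases and 26.7% with fewer. Across the 30 genes Spearman's rho between own bases and mean count was 0.53, and across 19351 protein-coding genes 0.32. Genes are not independent replicates, and all points share the 3 libraries and the annotation.

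The canonical transcripts of the 6 genes listed at 0 had between 0% and 2% of their last 300 bases to themselves. A further protein-coding transcript of LSS, and another of ACACA, had 100% of these bases to itself and held no count. CYP51A1 had 6 own bases there, and 2 other protein-coding genes on the same strand covered 2844 and 2827 of the 3155 bases of its canonical transcript. FDFT1, LSS and INSIG2 had none, and INSIG1 and ACACA had 2. The exceptions went both ways. SQLE had 2 own bases among the last 300 but 1050 over the whole transcript and a mean of 978 counts. HSD17B7 had 148 of its 149 counts on a transcript with 0 own bases over its whole length. MVK had all 300 to itself and no count on its canonical transcript. HMGCS1 and NSDHL also had all 300, with means of 30.7 and 33.0 counts. The part of shared 3′ ends in the levels of single genes was not tested.

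**Figure D3:**
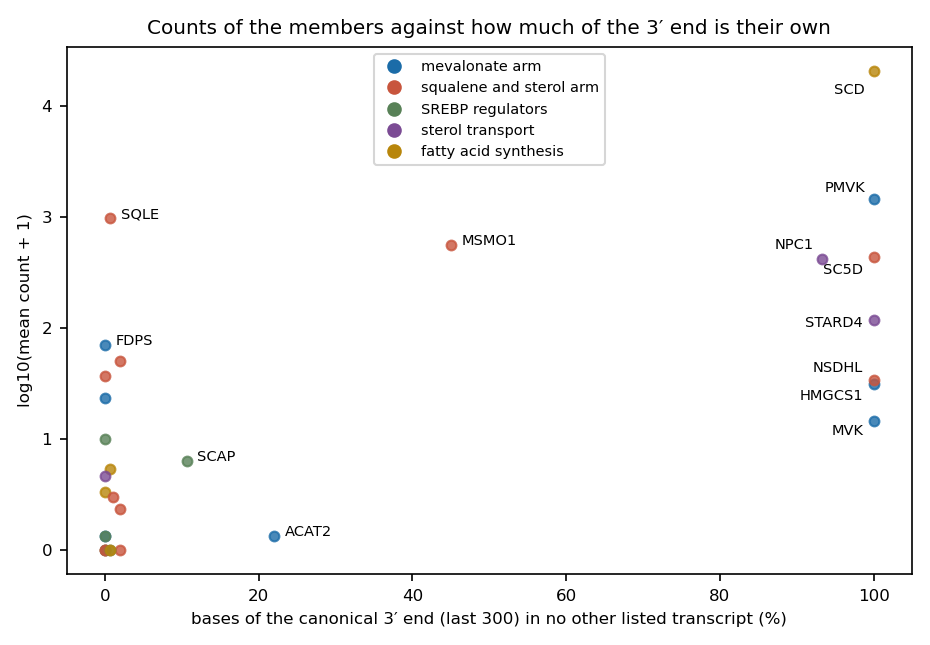
Mean count per replicate of each of the 30 genes, as log10(mean count + 1), against the percent of the last 300 bases of its canonical transcript that belong to it alone on its strand, coloured by arm. Genes at the right, from MVK to SCD, all hold counts, the genes at 0 counts lie at 2% or less, and SQLE stands far above the others at the left.

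Pseudogene copies took few counts. The annotation holds 17 pseudogenes named after 5 of the 30 genes. Of these, 7 had a count, with 31 counts in all and none with a mean of 10, and adding them gave a summed level of 1363 TPM. The largest share, 14 counts, lay on CYP51A1P2, and adding the copies of CYP51A1 took that gene from 0 to 0.873 TPM. Where a neighbour on the other strand overlaps a gene, reads could not be assigned here, since the strand setting of the counting was not given in the sources used. A long noncoding RNA covers 2497 of the 5350 bases of the HMGCS1 transcript, TCP1 covers 388 of the 1641 bases of the ACAT2 transcript that held its count, STARD4-AS1 covers 124 of 4631 bases of STARD4 and RMC1 covers 198 of 4760 bases of NPC1.

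The replicates differed in how much of each library was mitochondrial, and in TPM replicate 3 lay below the mean of the others by a median log2 ratio of -0.54 over the 5656 genes that reached 50 counts in each. Of the 30 genes 7 did so, with a median of -0.45. In nuclear CPM, which divides by the counts outside mitochondrial genes, the same 7 genes had a median of 0.18 and the 5656 genes 0.08. SCD stood at 3363, 3082 and 3651 nuclear CPM, and its log2 ratio of replicate 3 to the others was 0.18. The ratio was 0.25 for PMVK, 0.17 for NPC1 and -0.10 for MSMO1. SQLE was lower in replicate 3, at 165, 170 and 140 nuclear CPM and a log2 ratio of -0.26.

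Among these 7 genes STARD4 had the largest ratio. It stood at 12.6, 13.6 and 30.1 nuclear CPM, a log2 ratio of 1.20 for replicate 3, at the percentile 98.4 of the 5656 genes. SC5D followed with 62.4, 62.6 and 85.6 nuclear CPM and a log2 ratio of 0.45, at the percentile 79.6. Below 50 counts, HMGCS1 stood at 3.47, 3.05 and 8.25 nuclear CPM and HSD17B7 at 7.10, 4.41 and 12.4, with replicate 3 on top. Replicate 3 was instead the lowest for NSDHL at 5.999, 6.11 and 3.96 nuclear CPM, and likewise for TM7SF2, IDI1 and MVK. FDPS stood at 14.7, 4.24 and 14.3 nuclear CPM, with replicate 2 the lowest. The mitochondrial share of 25.8% moved with these values in replicate 3, and its part in them was not tested.

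**Figure D4:**
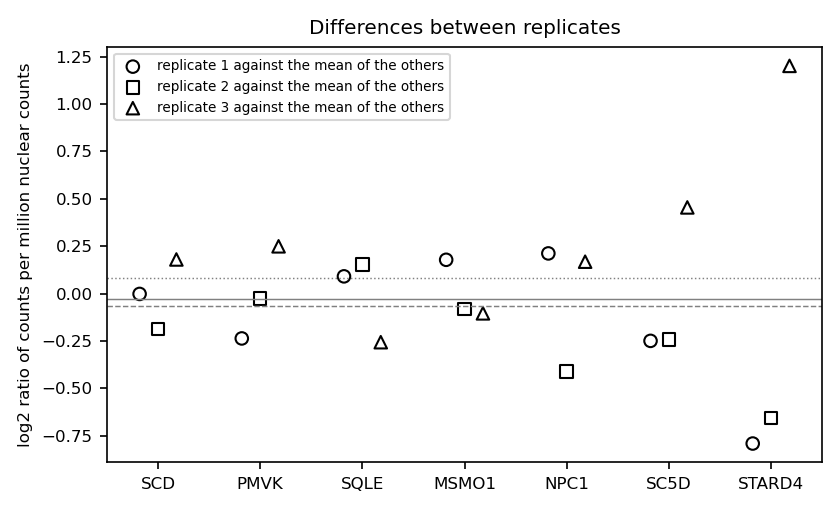
Log2 ratio of each replicate to the mean of the others, in nuclear CPM, for the 7 genes that reached 50 counts in each. Grey lines are the medians of 5656 genes for replicate 1 (solid), 2 (dashed) and 3 (dotted). STARD4 in replicate 3 stands at 1.20, while SCD lies between -0.19 and 0.18.

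Several of the 30 genes have a counterpart that does similar work. Apart from INSIG1 and INSIG2, the genes of each pair described here did not overlap in TPM over the replicates. How often gene pairs in general differ in this way was not computed. SCD at 819 TPM was above SCD5, the other stearoyl-CoA desaturase, at 86.1 ± 16.6 TPM. Both canonical transcripts had all of their last 300 bases to themselves. ACAT1, the mitochondrial thiolase, stood at 18.6 ± 2.13 TPM against 0.0448 TPM for ACAT2. ACACB, the carboxylase of the mitochondrial surface, stood at 3.46 ± 1.58 TPM while ACACA was listed at 0. FDPS at 6.85 TPM was above GGPS1, which makes the longer geranylgeranyl chain, at 0.189 TPM, and SREBF1 at 2.15 TPM was above SREBF2 at 0.116 TPM. NPC1 was above NPC2, which is its partner in the same route and not a counterpart. Their canonical transcripts had 93.3% and 0% of the 3′ end to themselves. INSIG1 and INSIG2 were both listed at 0. The canonical transcripts of ACAT2, ACAT1, ACACA, ACACB, FDPS, GGPS1, SREBF1 and SREBF2 each had at most 22% of the 3′ end to themselves. The transcripts that held most counts of FDPS, SREBF1 and SREBF2 each had 100%, and that of ACAT2 had 0%.

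Beyond the 30 genes, 43 genes of neighbouring lipid routes were measured in the same way, and 29 were expressed, 13 high and 10 at or under 3 counts in every replicate. Fatty acid elongation and desaturation held 9 expressed genes of 10. The highest were HACD3, a dehydratase of chain elongation, at 495 ± 112 TPM, FADS1, a desaturase of polyunsaturated chains, at 189 ± 63.3 TPM, and ELOVL5, an elongase of such chains, at 127 ± 39.5 TPM. These genes act on fatty acids that are already made, as SCD does.

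The machinery that processes the SREBF proteins and degrades sterol-regulated proteins was expressed in 8 of 8 genes, with a median of 56.3 TPM, and the 5 regulators themselves had a median of 0.116 TPM. The 3′ ends of the canonical transcripts differed as well. In 5 of the 8 all of the last 300 bases were their own, and in the 5 regulators at most 10.7%. The transcripts that held most counts of SREBF1, SCAP and SREBF2 had 100%, 70% and 100% to themselves. MBTPS2, a protease that cuts the SREBF proteins, stood at 62.3, 59.4 and 57.7 TPM, and MBTPS1, which cuts before it, at 10.9, 20.05 and 8.89 TPM. FAF2, an adaptor of degradation at the endoplasmic reticulum, stood at 233 ± 54.2 TPM, and the ubiquitin ligase RNF139 at 95.4 TPM. Sterol efflux, esterification and its LXR regulators held 1 expressed gene of 7, ABCA1, an exporter of cholesterol, at 1.43 ± 0.371 TPM. NR1H3 (the receptor LXR alpha) and SOAT1, which esterifies cholesterol, were listed at 0. Isoprenoid branches held 5 expressed genes of 7, and acetyl and malonyl supply with fatty acid activation 4 of 8. With at least 100 own bases at the 3′ end 14 of 16 of these 43 genes were expressed, and with fewer 15 of 27.

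An i-motif can fold from 4 runs of cytosines, so the promoters of the 30 genes were searched for 4 runs of at least 3 Cs with 0 to 7 bases between runs, on both strands. RefSeq windows on GRCh38.p14, from 250 bases before the start to 50 after it, were held for 26 of the 30 genes, and ACAT2, SQLE, FDFT1 and FASN were not in the table. Such a stretch was found in 13 of 26 windows and in 32.4% of 15843 windows of the same length. It lay in the windows of HMGCS1 and MVK in the mevalonate arm, of CYP51A1, LSS, TM7SF2 and DHCR7 in the sterol arm, of SREBF2, SCAP and INSIG1 among the regulators, of STARD4 and NPC2 in transport and of ACLY and ACACA in fatty acid synthesis. Of SCD, PMVK, MSMO1 and NPC1, the high genes with a window, none held one.

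These stretches are shown for 2 regulators and for 1 gene each of the mevalonate arm, sterol transport and fatty acid synthesis, so that their runs and loops can be compared, written 5′ to 3′ on the strand that carries the Cs. Capitals mark runs of at least 3 Cs and small letters the bases between them, and positions are counted from the start in the RefSeq window. The stretch of SREBF2 (chr22:41833068-41833090, minus strand, positions -37 to -15) and that of INSIG1 (chr7:155297744-155297764, minus strand, -134 to -114) lie on the strand opposite to the gene. So does that of HMGCS1 (chr5:43313530-43313549, plus strand, -137 to -118), while STARD4 carries 1 on its own strand (chr5:111512602-111512622, minus strand, -87 to -67) and ACACA likewise (chr17:37406974-37406988, minus strand, -152 to -138).
SREBF2: CCCCCgCCCCagCCCgcgCCCCC
INSIG1: CCCCgCCCCgCCCgcgagCCC
HMGCS1: CCCggcagcgCCCgCCCCCC
STARD4: CCCCCCCtCCCCggagCCCCC
ACACA: CCCgCCCgCCCgCCC
The run of 6 Cs in HMGCS1 and the run of 7 in STARD4 were counted as 2 runs with no base between them.

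The 13 genes with such a stretch in the window had a median of 0.709 TPM and 4 were expressed, and the 13 without had a median of 6.85 TPM and 10 were expressed. The 2 sets also differed in their 3′ ends: 3 of 13 with a stretch and 6 of 13 without had at least 100 own bases there, and the part of this in the levels was not tested. The sets depend on the loop limit. With loops of up to 12 bases 17 windows held a stretch, and IDI1, NPC1, NSDHL and SREBF1, all expressed, joined the genes with one. The expressed share over all windows with and without a stretch was not computed. Within 1 kb on each side of the start, 25 of the 30 genes held a stretch, 83.3%, beside 71.2% of 20020 protein-coding genes, so the wider window left few genes without one.

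The binding sequence of the SREBF proteins was searched as TCACNCCAC on both strands. It was found in 1 of 26 windows, that of SREBF2 itself, and in 1.17% of all windows. It is shown with 10 bases on each side and the match in capitals, at chr22:41832972-41832980 on the plus strand, positions -133 to -125, and apart from the cytosine stretch above.
SREBF2: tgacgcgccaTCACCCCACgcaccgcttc
Other motifs were common. CCAAT was in 18 of 26 windows, 69.2%, beside 36.4% of all windows, and the GC box GGGCGG, which can overlap a cytosine run on the other strand, was in 25 of 26 beside 58.5%. The E box CACGTG was in 4 of 26 windows beside 8.88%. Within 1 kb on each side of the start, TCACNCCAC was in 3 of 30 genes (FASN, HMGCS1 and SREBF2). That was 10%, beside 10.03% of 20020 protein-coding genes. In this wider window CCAAT was in 90% of the 30 genes beside 87.1%. The GC box was in 100% beside 81.7%, and the E box in 43.3% beside 29.2%. Matches are descriptions of letters in these windows, and an absent match says only that the letters are not there.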

How the data were processed

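The libraries were made by the authors from 2 µg of total RNA with a QuantSeq 3′ mRNA-seq kit, as 3 independent cultures per the study's methods, although the labels name the material genomic DNA. Per the submitters' processing notes, reads were handled with Trimmomatic 0.38.0, HISAT2 2.2.1 and featureCounts on hg38. The annotation release and the rules for strand and for reads on several transcripts were not given in the sources used here. The deposited counts are raw, whole numbers of reads on each of 247541 transcripts. The deposited TPM was made by the authors from these counts, divided by transcript length and rescaled to 1000000 in each library.

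Of these transcripts 223558 matched GENCODE 44 on GRCh38, where the 30 genes have 321 listed transcripts, 46 with a count. Values were summed by gene in Python 3.11.15 with pandas 2.3.3 and numpy 2.4.6, SDs of log2 values used a pseudocount of 1, and no column of another sample was present. Thresholds on TPM, own 3′ bases and cytosine runs are given where they are used. The categories and the motif search were tested on simulated data. With 1 group no differential test was run. A few items are not reported here. The members and lists were chosen with earlier results of these data known, and all members are named with their values. Alternatives included other thresholds, scalings, lengths and windows and leaving out each replicate. Those chosen after seeing the data were the other limits for own 3′ bases and the count on canonical transcripts alone. So were the levels without SCD or without genes at 3 counts or fewer. The number of genes with an own 3′ end was itself not planned, at the main limit for own 3′ bases as at the others.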

Additional observations from a re-analysis of the deposited data

How the results depend on the processing

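The number of expressed genes stayed between 14 and 24 with 1 TPM required in every replicate, any TPM above 0 or 1 CPM, fell to 7 at a threshold of 10 TPM and was 8 from counts on canonical transcripts alone. The number of high genes was 9 when any gene above 0 TPM counted as expressed, 4 with the canonical length or canonical counts, and 5 or 6 under the other settings. The median level of 1.33 TPM became 2.00 TPM without mitochondrial genes, 0.684 TPM with canonical lengths and 4.98 TPM without the genes at 3 counts or fewer. The summed level of 1362 TPM became 1890 TPM without mitochondrial genes, 543 TPM without SCD and 3471 CPM without division by length.

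Leaving out each replicate in turn gave 15 to 16 expressed genes, not all of them the same: without replicate 1 FASN fell to 0.631 TPM and ACLY rose to 1.07 TPM, and without replicate 3 SCAP fell to 0.774 TPM. It gave 5 high genes each time, a median of 1.19 to 1.63 TPM, a sum of 1274 to 1500 TPM and a median SD of log2(TPM + 1) of 0.126 to 0.511, the lowest without replicate 3. Without mitochondrial genes 10 of 30 levels rose by more than 1 SD, and with canonical lengths 1 rose and 7 fell. Cytosine stretches were found in 17 windows with loops of up to 12 bases, in 26 with runs of 2 Cs and in 25 of 30 genes within 1 kb. The number of genes with an own 3′ end was 7 to 10 with 50 to 300 bases required. No paired analysis was possible because there was 1 group. Only 15 of 30 genes held more than 3 counts in every replicate, and the order of the others rests on few reads.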
